A study of Homo sapiens with 6 samples.

Results

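NRF2, encoded by *NFE2L2*, is the transcription factor that cells use to raise their defences against oxidants. A set of 34 genes of this system was followed in human bronchial epithelial cells (HBECs, labelled HBE cells), an immortalized cell line. The set was a list of names, and all 34 were found among the 61228 gene names of the table. It held regulators of NRF2, enzymes of glutathione, thioredoxin and peroxiredoxin chemistry, superoxide dismutases and catalase, enzymes that supply NADPH, exporters of conjugated compounds, and 3 genes of heme and other stress handling. In the study, wild-type cells received cockroach extract (CRE), an allergen, for 24 h in 3 libraries, and CRE plus VAF347 in 3 libraries. VAF347 is a small-molecule agonist of the aryl hydrocarbon receptor (AhR) and was given at 20 µM, 1 h before CRE. Every library thus came from allergen-exposed cells, the CRE dose of these libraries was not stated, and cells without CRE or with VAF347 alone were not analysed here. Nothing in the labels says whether replicates came from separate cultures, so the spread between libraries may be technical.

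In resting cells KEAP1 holds NRF2 and directs it to degradation. Oxidants and electrophiles modify KEAP1, NRF2 then accumulates, pairs with a small MAF protein and binds antioxidant response elements, while BACH1 occupies the same elements as a repressor. The products of its targets make glutathione, keep thioredoxin and peroxiredoxins reduced, and feed them with NADPH from the pentose phosphate pathway and malic enzyme. AhR and NRF2 share some targets, *NQO1* among them. The airway epithelium, which inhaled oxidants reach first, relies on this system.

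The libraries held 8873160 to 10750283 estimated counts. AhR target genes were higher in all 3 libraries that received the agonist. *CYP1A1*, a cytochrome P450 induced by AhR, was at 0.621, 0.785 and 0.467 counts per 1000000 (CPM) with CRE and at 51.0, 43.3 and 45.9 CPM with VAF347. Its log2 fold change was 6.20, and those of *CYP1B1*, *TIPARP* and *AHRR* were 3.14, 2.24 and 2.16. The epithelial genes *KRT8*, *KRT18*, *EPCAM* and *CDH1* were high in every library. Of the basal-cell genes, *KRT17* was at 121 to 155 CPM and *KRT5* at 12.1 to 17.5 CPM, while *KRT14* and *TP63* were at or near 0, as were the secretory genes *SCGB1A1* and *MUC5AC*. *KRT17* and *KRT19* were lower with VAF347 (log2 fold change -0.27 and -0.38, adjusted p = 0.0240 and 0.0265 in edgeR). Of the immune, endothelial and fibroblast genes, *COL1A1* was at 36.0 to 44.9 CPM and *CD68* at 14.9 to 27.8 CPM. *VWF*, at 1.05 to 3.73 CPM, was lower with VAF347 (log2 fold change -1.45, adjusted p = 0.0107 in edgeR). *PDGFRB* was at 0.899 to 1.60 CPM, and *PTPRC*, *CD3E*, *PECAM1* and *COL3A1* were at or near 0. CRE replicate 3 stood apart. The mean chi-square per gene was 8.54 and 8.24 between it and the other CRE libraries, and 2.38 between those 2. Its weight in the 34 genes is given further on, with the values obtained without it.

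With VAF347, 5 of the 33 genes that could be tested rose and none fell at an adjusted p under 0.05 in edgeR's quasi-likelihood test. The 5 were *TXNRD1*, *MAFG*, *SRXN1*, *NFE2L2* and *GCLC*, and their rises were between 1.24-fold and 1.49-fold. At an unadjusted p under 0.05, 11 genes passed, where 20.8% of all genes did. The share called at the adjusted threshold was 15.2%, beside 5.42% of all 15373 genes tested, of which 1.35% were higher and 4.07% were lower with VAF347. Only *TXNRD1* also passed an absolute log2 fold change of 0.5, which 2.21% of all genes did (0.501% higher and 1.71% lower). The remaining gene, *GPX2*, a glutathione peroxidase, was at 0 to 3 counts in every library and was not tested. Which genes were called depended on the fit, while no gene changed sign between fits where it passed. DESeq2 and an edgeR fit with a correction for GC content each called 4 higher and 1 lower, beside 1.95% and 4.33% of all genes. A correction for gene length, added after the data were seen, called 6 higher and 3 lower, beside 9.28%.

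As a whole the 34 genes did not move one way. Of the 33 tested, 20 had a log2 fold change above 0, as did 52.1% of all genes, and 13 below, from -0.36 to 0.57, with a median of 0.02 beside 0.0096 for all genes. The 3 libraries of each group did not overlap for 10 of them (30.3%, beside 27.3% of all genes), with 6 higher and 4 lower, where 12.5% of all genes were higher and 14.8% lower. That share lies close to the share of all genes. By sub-group the median log2 fold change was 0.33 for thioredoxin, 0.17 for regulators, 0.14 for heme and other stress genes, 0.058 for glutathione and 0.043 for exporters. It was 0.0065 for superoxide dismutases and catalase, -0.0026 for peroxiredoxins and -0.054 for NADPH supply. The calls lay in 3 of the 8 sub-groups, with 2 among the regulators, 2 in the thioredoxin group and 1 in the glutathione group.

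**Figure D1:**
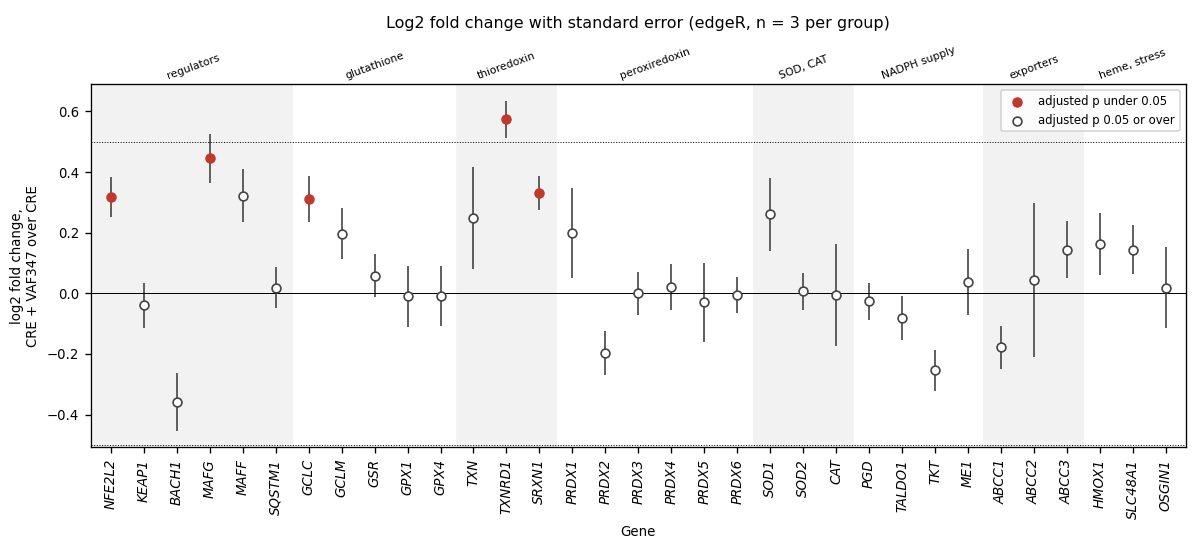
Log2 fold change (CRE + VAF347 over CRE, vertical axis) of the 33 genes tested, ordered by sub-group along the horizontal axis, with bars of 1 standard error from edgeR and n = 3 libraries in each group. Filled points have an adjusted p under 0.05, and dotted lines mark a log2 fold change of 0.5 in either direction; *TXNRD1* alone lies beyond them.

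Among the regulators, *NFE2L2* and *MAFG* rose. *NFE2L2*, the gene of NRF2 itself, was at 119.6, 125 and 131 CPM with CRE and at 150.1, 150.2 and 168 CPM with VAF347. All 3 libraries with VAF347 lay above all 3 without it, and the log2 fold change was 0.32 ± 0.067 (SE, n = 3 per group, adjusted p = 0.0200 in edgeR). Its transcripts are poor in GC (41.5%, where the median of the 33 genes was 51.7%), and across 11110 genes the log2 fold change fell with GC content (Spearman's rho -0.36, across genes, which are not replicates). With a GC correction the log2 fold change of *NFE2L2* was 0.25 and its adjusted p 0.0665. The call also did not hold in 5 of the 6 fits that left out 1 library (adjusted p 0.0587 to 0.110), and held without CRE replicate 3 (0.00137). Exons of *NFE2L2* overlap *HNRNPA3* and *AGPS* on the opposite strand, and use of strand was not stated. *HNRNPA3* had a log2 fold change of 0.11 (adjusted p = 0.521), and the part of these overlaps in the value of *NFE2L2* was not tested.

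*MAFG* encodes a small MAF protein that pairs with NRF2 on DNA. It was at 76.1, 76.1 and 64.2 CPM with CRE and at 95.7, 93.6 and 105 CPM with VAF347, a log2 fold change of 0.44 ± 0.080 (SE, adjusted p = 0.00857 in edgeR). The groups were well separated, with the lowest library in CRE replicate 3. Without that replicate the log2 fold change was 0.37 (adjusted p = 0.00154), and among the 6 fits without 1 library the call was lost only without VAF347 replicate 3 (adjusted p = 0.0689). *MAFG* shares exon sequence with *SIRT7* on the same strand, which had a log2 fold change of 0.32 (adjusted p = 0.0574), so reads of the pair may have been divided between them. What part this has in the value was not tested.

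The other small MAF gene of the set, *MAFF*, did not pass, with a log2 fold change of 0.32 ± 0.087 (adjusted p = 0.0571 in edgeR). *BACH1*, the repressor of the same elements, had the lowest value of the set, -0.36 ± 0.10 (adjusted p = 0.0538 in edgeR). In both genes all 3 libraries with VAF347 lay on 1 side of all 3 without it. Neither passed in DESeq2 (adjusted p = 0.122 and 0.128) or in any of the 6 fits without 1 library (up to 0.249 and 0.202), and *BACH1* lay on the same side with the replicate number as a block (0.0758). With the GC correction both passed, *MAFF* at 0.40 (adjusted p = 0.0282) and *BACH1* at -0.44 (adjusted p = 0.0232), and with the length correction both passed as well (0.0258 and 0.0211). *KEAP1*, which captures NRF2, had a log2 fold change of -0.039 (adjusted p = 0.807 in edgeR).

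*SQSTM1*, whose product p62 draws KEAP1 away to autophagy, was the most abundant regulator. It was at 359.7, 378 and 413 CPM with CRE and at 409, 386 and 372 CPM with VAF347. The groups overlapped, and the log2 fold change was 0.019 ± 0.069 (SE, adjusted p = 0.907 in edgeR).

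In the thioredoxin group 2 reducing enzymes rose, and thioredoxin itself did not pass. *TXNRD1* encodes cytosolic thioredoxin reductase, which passes electrons from NADPH to thioredoxin. It was at 294, 265 and 286 CPM with CRE and at 416, 416 and 426 CPM with VAF347. The mean went from 282 ± 14.9 to 419 ± 6.12 CPM (SD, n = 3), a log2 fold change of 0.57 ± 0.061 (SE, adjusted p = 0.000427 in edgeR). The gap between the groups was far wider than the spread within either. *TXNRD1* passed in all 9 other fits to counts and in all 6 fits that left out 1 library, with log2 fold changes of 0.53 to 0.61 in the latter. On TPM (a level per length that sums to 1000000 in each library) with limma it did not pass, at a log2 fold change of 0.48 and an adjusted p of 0.0943 in a fit that called 0.545% of all genes. No gene overlapping its exons was found in the annotation.

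*SRXN1*, sulfiredoxin, repairs peroxiredoxins that have been over-oxidized. Its level was 98.5, 94.2 and 95.4 CPM with CRE against 121, 118 and 123 CPM with VAF347. The CRE libraries lay close to each other, and all were below the VAF347 libraries. The log2 fold change was 0.33 ± 0.057 (SE, adjusted p = 0.00665 in edgeR), and among the 6 fits without 1 library the call was lost only without VAF347 replicate 3 (adjusted p = 0.0520).

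*TXN*, thioredoxin, shows the weight of CRE replicate 3. It was at 156, 147 and 85.3 CPM with CRE and at 157, 154 and 149 CPM with VAF347. CRE replicate 3 was far below the other 5 libraries, which lay close together. The log2 fold change was 0.25 ± 0.17 (SE, adjusted p = 0.435 in edgeR) with that library and 0.02 (adjusted p = 0.871) without it.

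**Figure D2:**
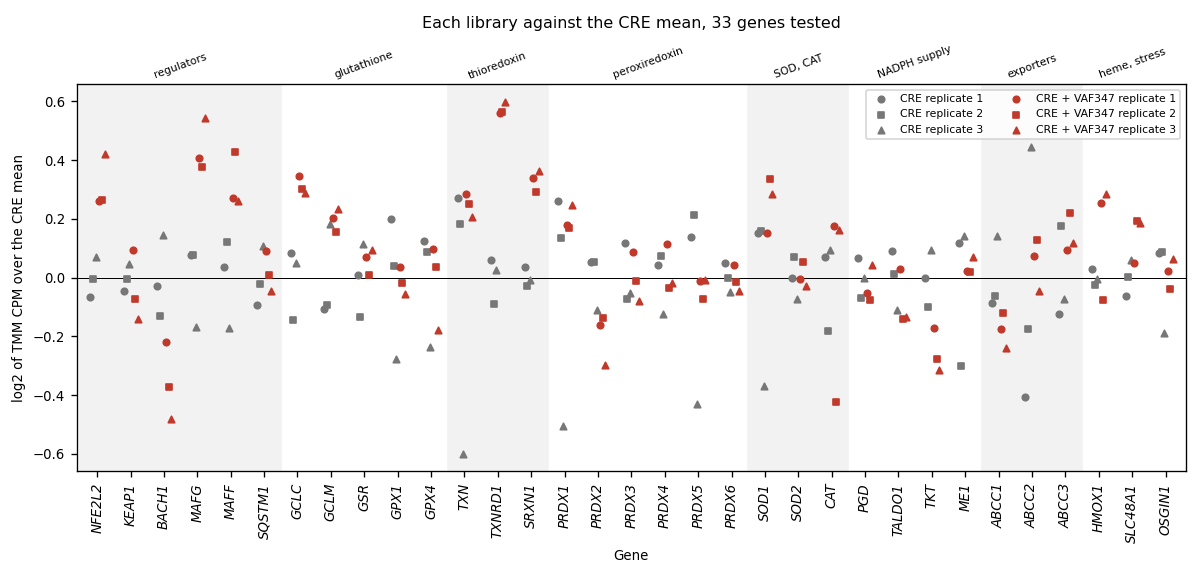
Log2 of each library's TMM-normalized CPM over the CRE mean (vertical axis) for the 33 genes tested (horizontal axis, shaded by sub-group), with the 3 CRE libraries in grey and the 3 CRE + VAF347 libraries in red. The red points of *TXNRD1*, *SRXN1*, *MAFG* and *NFE2L2* lie above all grey points, and the grey triangle of CRE replicate 3 lies far below the other libraries for *TXN*, *PRDX1*, *PRDX5* and *SOD1*.

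Of the glutathione genes, the catalytic subunit of the enzyme that limits glutathione synthesis rose. *GCLC* was at 52.6, 44.9 and 51.4 CPM with CRE and at 63.0, 61.2 and 60.6 CPM with VAF347. The groups did not overlap, and the log2 fold change was 0.31 ± 0.074 (SE, adjusted p = 0.0349 in edgeR). Its adjusted p was the highest of the 5 calls in this fit. The call was lost with DESeq2 (adjusted p = 0.0880), with the GC correction (0.0549) and in 4 of the 6 fits without 1 library (0.105 to 0.139). The 2 fits that kept it were those without CRE replicate 1 and without CRE replicate 3.

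*GCLM*, the modifier subunit of the same enzyme, had a log2 fold change of 0.20 ± 0.084 (adjusted p = 0.212 in edgeR). Without CRE replicate 3, in which it was highest among the CRE libraries, the value was 0.30 and passed (adjusted p = 0.00893). *GSR*, glutathione reductase, had 0.058, and the glutathione peroxidases *GPX1* and *GPX4* had -0.010 and -0.0099, with adjusted p between 0.686 and 0.970. *GPX4*, which reduces lipid peroxides, was the most abundant of the group. It was at 153, 149 and 119 CPM with CRE and at 150.1, 144 and 124 CPM with VAF347, and the groups overlapped over nearly their whole range.

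None of the 6 peroxiredoxin genes passed in edgeR, 1 did at an unadjusted p under 0.05, and none did in DESeq2 at either threshold. These enzymes reduce peroxides, most of them with electrons from thioredoxin. *PRDX1*, the most abundant of all 34 genes, was at 433, 397 and 255 CPM with CRE and at 409.8, 406 and 429 CPM with VAF347. As with *TXN*, CRE replicate 3 alone was low. The log2 fold change was 0.20 ± 0.15 (SE, adjusted p = 0.487 in edgeR) with that library and -0.0001 without it.

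The gene with the unadjusted p under 0.05 was *PRDX2*, at -0.20 ± 0.072 (adjusted p = 0.147 in edgeR), and its groups did not overlap. It passed without CRE replicate 3 (-0.25, adjusted p = 0.0207) and with the length correction (-0.28, adjusted p = 0.00839). *PRDX5*, which stood at -0.029, passed as lower only without CRE replicate 3 (-0.21, adjusted p = 0.0210). The mitochondrial *PRDX3*, the secretory-pathway *PRDX4* and the cytosolic *PRDX6* had log2 fold changes of -0.00020, 0.021 and -0.0050.

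Superoxide dismutases turn superoxide into hydrogen peroxide, and catalase breaks that down. In edgeR none of the 3 genes passed, and none did at an unadjusted p under 0.05, although DESeq2 gave 1 at that unadjusted threshold. *SOD1*, the cytosolic form, was at 119, 119 and 82.6 CPM with CRE and at 119, 135 and 130.0 CPM with VAF347. CRE replicate 3 was again the low library, and the log2 fold change of 0.26 ± 0.12 (SE, adjusted p = 0.244 in edgeR) became 0.10 without it. *SOD2*, the mitochondrial form, had 0.0065 ± 0.061 and *CAT* had -0.0049 ± 0.17. Under the other fits *SOD2* ran from -0.17 to 0.043. Its exons overlap *ACAT2* and *WTAP* on the opposite strand, at mean counts of 1555 and 1119 beside 1094 for *SOD2*. The part of these overlaps in its value was not tested.

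Among the enzymes that supply NADPH, no gene passed in edgeR, 1 did at an unadjusted p under 0.05, and the same number passed after adjustment in DESeq2. In each case it was *TKT*, transketolase, which joins the non-oxidative pentose phosphate pathway to glycolysis. *TKT* was at 409, 382 and 437 CPM with CRE and at 363, 338 and 329 CPM with VAF347. All 3 libraries with VAF347 lay below all 3 without it. The log2 fold change was -0.25 ± 0.068 (SE, adjusted p = 0.0562 in edgeR), and the adjusted p was 0.0312 in DESeq2, 0.0274 without CRE replicate 3 and 0.161 with the GC correction.

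The scale mattered for *TKT*. On TPM it stood at 307, 275 and 464 with CRE and at 253, 253 and 247 with VAF347, with CRE replicate 3 far above the rest. *TALDO1*, the transaldolase that works beside it, had a log2 fold change of -0.081 ± 0.072. The oxidative-branch dehydrogenase *PGD* had -0.027 ± 0.062 and the malic enzyme *ME1* had 0.037 ± 0.11, with adjusted p of 0.565, 0.846 and 0.880 in the same order.

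The exporters *ABCC1*, *ABCC2* and *ABCC3* pump glutathione, glucuronide and sulfate conjugates out of the cell. None passed in edgeR, 1 did at an unadjusted p under 0.05, and DESeq2 gave none at either threshold. *ABCC1*, the most abundant, was at 112, 114 and 132 CPM with CRE and at 106, 109.8 and 101 CPM with VAF347. Its groups did not overlap, with a log2 fold change of -0.18 ± 0.072 (SE, adjusted p = 0.188 in edgeR) that was -0.10 without CRE replicate 3. *ABCC3* had 0.14 ± 0.094, and *ABCC2*, at 2.17 to 3.93 CPM, had 0.043 ± 0.25.

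*HMOX1*, heme oxygenase, degrades heme and is a common readout of NRF2 and BACH1. It was at 24.2, 23.4 and 23.6 CPM with CRE and at 28.3, 22.5 and 28.9 CPM with VAF347. VAF347 replicate 2 lay below all CRE libraries while the other two lay above them. The log2 fold change was 0.16 ± 0.10 (SE, adjusted p = 0.404 in edgeR). The heme transporter *SLC48A1* had 0.14 ± 0.079 and the oxidative-stress-induced growth inhibitor *OSGIN1* had 0.019 ± 0.13. None of these 3 genes passed in edgeR or DESeq2, also at an unadjusted p under 0.05.

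The promoters of the 5 genes called are shown because these genes moved together with VAF347. They are RefSeq sequences on GRCh38.p14, from 250 bases before to 50 bases after the annotated start, 5′ to 3′ on the strand of the gene, and 27 of the 34 genes had an entry. Capitals mark 2 short motifs, searched on both strands: TGACNNNGC, the core of the antioxidant response element, and GCGTG, the core that AhR binds with its partner ARNT. The regions are chr12:104215529-104215828 (plus strand) for *TXNRD1*, chr17:81927686-81927985 (minus) for *MAFG*, chr20:653151-653450 (minus) for *SRXN1*, chr2:177264082-177264381 (minus) for *NFE2L2* and chr6:53545052-53545351 (minus) for *GCLC*.
TXNRD1: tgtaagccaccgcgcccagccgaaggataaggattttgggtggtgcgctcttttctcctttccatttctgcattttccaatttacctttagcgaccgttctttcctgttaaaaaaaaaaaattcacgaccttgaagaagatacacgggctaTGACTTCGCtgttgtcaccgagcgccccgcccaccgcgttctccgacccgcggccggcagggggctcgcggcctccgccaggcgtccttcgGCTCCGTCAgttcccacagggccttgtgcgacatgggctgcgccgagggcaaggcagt
MAFG: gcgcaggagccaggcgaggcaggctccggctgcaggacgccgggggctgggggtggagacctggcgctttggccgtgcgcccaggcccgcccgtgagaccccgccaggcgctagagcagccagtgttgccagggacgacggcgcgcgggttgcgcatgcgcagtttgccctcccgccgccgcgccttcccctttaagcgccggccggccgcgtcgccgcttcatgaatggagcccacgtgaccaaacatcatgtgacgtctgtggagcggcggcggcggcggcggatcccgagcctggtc
SRXN1: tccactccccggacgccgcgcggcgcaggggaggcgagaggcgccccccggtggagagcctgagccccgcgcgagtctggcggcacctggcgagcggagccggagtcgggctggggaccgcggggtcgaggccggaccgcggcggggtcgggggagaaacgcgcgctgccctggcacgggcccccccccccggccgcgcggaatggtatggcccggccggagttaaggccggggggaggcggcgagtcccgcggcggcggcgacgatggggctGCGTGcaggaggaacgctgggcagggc
NFE2L2: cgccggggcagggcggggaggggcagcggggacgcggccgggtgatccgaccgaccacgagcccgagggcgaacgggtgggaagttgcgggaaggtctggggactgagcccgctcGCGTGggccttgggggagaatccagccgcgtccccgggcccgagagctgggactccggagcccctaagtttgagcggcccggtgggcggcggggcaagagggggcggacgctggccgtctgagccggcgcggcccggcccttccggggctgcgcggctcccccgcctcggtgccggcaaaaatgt
GCLC: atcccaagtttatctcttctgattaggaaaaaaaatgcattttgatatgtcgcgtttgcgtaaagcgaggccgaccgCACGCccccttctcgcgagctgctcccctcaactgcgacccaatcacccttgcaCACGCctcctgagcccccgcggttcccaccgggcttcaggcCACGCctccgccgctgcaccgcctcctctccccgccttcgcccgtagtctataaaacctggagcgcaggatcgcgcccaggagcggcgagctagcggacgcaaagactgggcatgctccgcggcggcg

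The *TXNRD1* window holds TGACNNNGC at positions -99 and -8, on either strand, and no GCGTG. The *NFE2L2* window holds GCGTG at -135, that of *SRXN1* at 24 and that of *GCLC*, on the opposite strand, at -173, -119 and -78. The *MAFG* window holds neither. Over all 27305 promoters of this length, 13.6% hold TGACNNNGC and 36.3% hold GCGTG, and among the 27 member promoters 6 and 13 do. A match describes letters only, and elements outside these windows were not searched. A single annotated start was used per gene, for *TXNRD1* that at the 5′ end of the whole gene. Windows at other starts of these genes were not searched.

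Levels between genes were compared on TPM. The order was led by *PRDX1* at a mean of 994 TPM over the 6 libraries, *TXN* at 772, *PRDX3* at 475, *SOD1* at 354 and *TKT* at 299.9. These 5 held 46.9% to 53.7% of the summed TPM of the set, and the set held 0.538% to 0.576% of all TPM in a library. *SOD1* and *TKT* overlapped in their libraries, as did *TKT*, *PRDX6* and *PRDX5* behind them. Of the genes called, *TXNRD1* stood at rank 10 with 205 TPM, and *NFE2L2*, *SRXN1*, *GCLC* and *MAFG* were at 109, 72.1, 31.2 and 25.4 TPM. The lowest were *CAT* at 8.88, *OSGIN1* at 5.60, *ABCC2* at 0.976 and *GPX2* at 0.506 TPM. In bulk RNA, a change in the number of cells of a kind and a change in RNA per cell cannot be told apart.

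**Figure D3:**
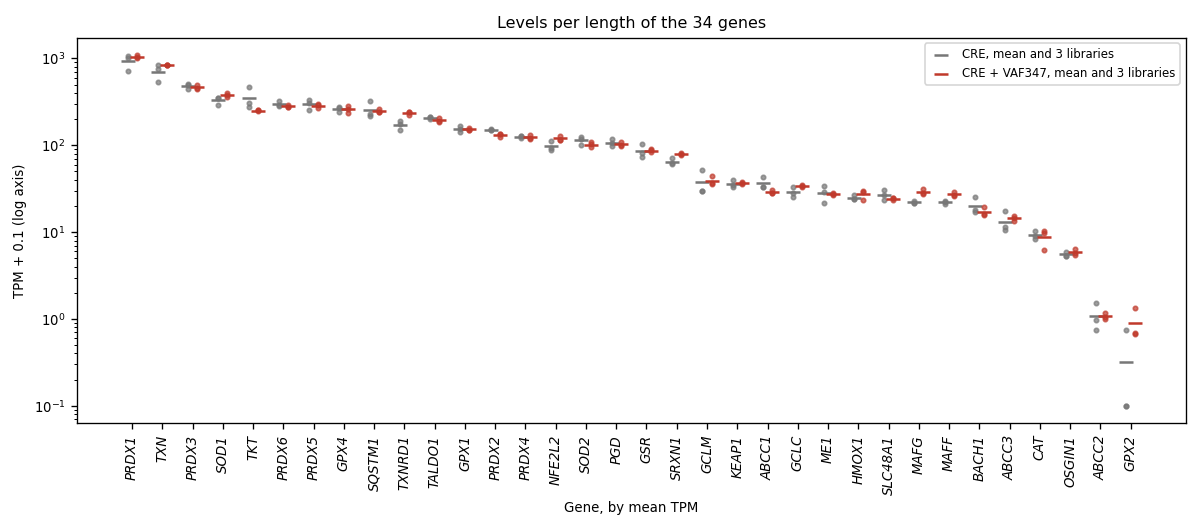
Level per length of the 34 genes (TPM + 0.1, log axis) in the CRE libraries (grey) and the CRE + VAF347 libraries (red), ordered by mean TPM along the horizontal axis, with points for libraries and a line for each group mean. The levels run from *PRDX1* to *GPX2*, and the points of CRE replicate 3 are low for *TXN* and *PRDX1* and high for *TKT*.

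Summed over the thioredoxin group, TPM was 1076, 963 and 791 with CRE and 1140.0, 1164 and 1159 with VAF347. Summed over NADPH supply it was 653, 597 and 827 with CRE and 589, 563 and 577 with VAF347. *TKT* was the largest part of the NADPH sum, at a mean of 349 TPM with CRE and 251 TPM with VAF347. The means of *TALDO1*, *PGD* and *ME1* were 208, 107 and 28.2 TPM with CRE and 194, 104 and 27.3 TPM with VAF347. The thioredoxin libraries with VAF347 all lay above those with CRE, and the NADPH libraries with VAF347 all lay below, with CRE replicate 3 the farthest CRE library in both. No test was run on these sums.

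CRE replicate 3 was the lowest of the 6 libraries for 12 of the 33 genes tested (36.4%, beside 24.1% of all genes) and the highest for 7 (21.2%, beside 25.3%). Its difference from the other CRE libraries moved with gene length across 11085 genes (Spearman's rho 0.53 with the count per TPM, across genes), and not with GC content (rho 0.00). The short transcripts *TXN*, *PRDX1*, *PRDX5* and *SOD1* stood at log2 values of -0.82, -0.70, -0.61 and -0.52 in it relative to the mean of CRE replicates 1 and 2. Other members with a low count per TPM moved less. *GPX1* and *GPX4* stood at -0.40 and -0.34, and *PRDX4*, *PRDX2* and *PRDX3* at -0.18, -0.16 and -0.075. With that library left out, 9 genes passed, of which 6 were higher and 3 lower, and 8.26% of all genes did. The 9 were the original 5 with *GCLM*, *PRDX2*, *PRDX5* and *TKT*. With the length correction 9 passed too, with *MAFF* and *BACH1* in place of *GCLM* and *PRDX5*. Several genes that passed in neither fit also moved. Without that library the log2 fold change was -0.13 for *GPX1*, -0.12 for *GPX4*, 0.12 for *GSR*, 0.34 for *ABCC2*, 0.12 for *ME1*, -0.13 for *TALDO1*, 0.076 for *SQSTM1* and -0.016 for *KEAP1*. It was -0.069 for *OSGIN1*, -0.029 for *SOD2* and -0.040 for *PRDX4*, which had been above 0, 0.047 for *CAT*, which had been below, -0.026 for *PRDX3* and -0.029 for *PRDX6*. The part of RNA quality or library preparation in this was not tested.

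**Figure D4:**
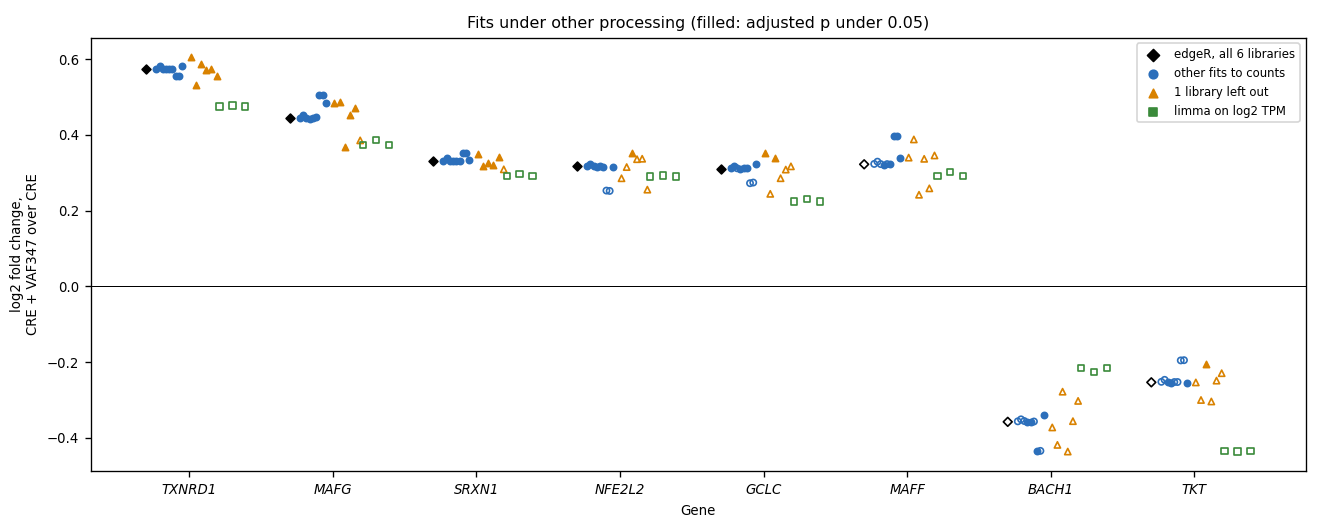
Log2 fold change (CRE + VAF347 over CRE, vertical axis) of the 5 genes called and the 3 closest to the threshold under each fit, with filled symbols for an adjusted p under 0.05. *TXNRD1* passes in every fit to counts, the other 4 genes called lose the call in 1 to 5 of the 6 fits without 1 library, and open green squares show that none passes with limma on TPM.

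Other genes of the same system were taken from another list of 42, of which 38 could be tested. In edgeR 4 passed, with 3 higher and 1 lower (10.5%, beside 5.42% of all genes), and the median log2 fold change was 0.074. *SLC7A11*, the cystine importer that feeds glutathione synthesis, rose, with a log2 fold change of 1.18 ± 0.12 (SE, adjusted p = 0.000280). *NQO1*, the quinone reductase, rose as well, at 0.86 ± 0.058 (adjusted p = 1.82e-05), and so did the exporter *ABCG2*, at 0.71 ± 0.084 (adjusted p = 0.000733). Each of the 3 was higher in all 3 libraries with VAF347 than in any without, and their log2 fold changes were larger than that of *TXNRD1*, a difference that was not tested. *IDH2*, which makes NADPH in mitochondria, had -0.23 ± 0.060 (adjusted p = 0.0469). That call was lost in 5 of the 6 fits without 1 library.

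Enzymes that produce oxidants formed a list of 19, of which 10 could be tested. None passed in edgeR, none had an unadjusted p under 0.05, and DESeq2 gave the same. Of the 10, 7 had a log2 fold change below 0. The groups did not overlap for 4 (40%, beside 27.3% of all genes). All 4 were lower with VAF347, where 14.8% of all genes were. The median log2 fold change was -0.24, and it rested mostly on genes near the floor. The abundant *CYBA*, *RAC1* and *RAC2* had 0.035, 0.049 and -0.16, and of these only *RAC2* had groups that did not overlap. The other tested genes lay at 0.787 to 5.89 CPM, with standard errors of 0.16 to 0.36. *NOX4* and *MAOB* were at 0 counts in all 6 libraries.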

How the data were processed

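The 6 RNA-seq libraries (3 CRE, 3 CRE + VAF347) were grouped by their labels. Poly(A)-enriched RNA had been sequenced as paired reads of 150 bp. The authors estimated fragments with Salmon on hg38 (per the submitters' processing notes) and deposited expected counts by gene symbol, without depth scaling, together with TPM values. The Salmon version, the annotation and the use of strand are not given in the sources used here. The deposited table of the authors' DESeq2 comparison holds fold changes, p-values and mean counts, and was not used. All 61228 gene names were found in GENCODE 44, from which overlaps and GC content were taken.

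Expected counts were rounded (14.5% of values were not whole) and tested with edgeR 4.0.16 in R 4.3.3 after filterByExpr and TMM, by its quasi-likelihood test, and p-values were adjusted by Benjamini-Hochberg over all 15373 genes tested. Genes passed at an adjusted p under 0.05, and passed both thresholds where the log2 fold change also exceeded 0.5 in size. The standard error was the size of the log2 fold change over the root of F. CPM values are TMM-normalized. An exact permutation test of 3 against 3 libraries cannot go below 0.1, so the model across genes was used throughout. The members and gene lists were chosen with earlier results of these data known, and no list was tested as a set.

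Every member is accounted for. Values in each library are given for members past the adjusted p and for the most abundant member of each sub-group by TPM. Genes of the other lists are named if they passed both thresholds, with up to 3 more past the adjusted p alone. Some oxidant-producing enzymes are named for their levels. Further values beside CRE replicate 3, and the gene length correction, were chosen after the data were seen.

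The edgeR, DESeq2 and limma tests were run on simulated data holding known fold changes, which did not cover the offsets, the block or the other filters. At a log2 fold change of 0.5 they recovered 28, 26 and 29 of 50 changed genes. Smaller changes were not simulated, so a gene that did not pass may still have changed. Alternatives were DESeq2 1.42.0 and its size factors, upper-quartile scaling, no filter, a minimum of 10 counts per library, a replicate block, offsets for GC content and gene length, limma 3.58.1 on log2(TPM + 1) and log2(TPM + 0.1), other thresholds, and leaving out each library.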

Additional observations from a re-analysis of the deposited data

How the results depend on the processing

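The adjusted p of *TXNRD1* passed in all fits to counts, and the members past both thresholds numbered 1 throughout, except for 2 with the GC offset, with or without the replicate block (*MAFG* at 0.50 was added), 5 at a log2 fold change over 0.25, and 0 with limma on TPM. With limma on log2(TPM + 1) at a mean TPM of at least 1, 0 members passed the adjusted p (8 at an unadjusted p under 0.05), and of the other NRF2 genes 1 passed it and 1 both thresholds. On log2(TPM + 0.1) these were 0, 8, 1 and 1, and with no filter 0, 7, 0 and 0. On those 3 scales the median of superoxide dismutases and catalase was -0.087, -0.099 and -0.087, and that of heme and other stress genes 0.073, 0.085 and 0.073. With no filter on counts 10 members passed, beside 5.56% of all genes (*MAFF*, *TXN*, *SOD1*, *BACH1* and *TKT* were added), and 7 other NRF2 genes. With the length offset 9 members passed, beside 9.28%. The glutathione median was 0.13 with DESeq2 and 0.13 with no filter, where *GPX2* entered. Leaving out 1 library gave 1 (without VAF347 replicate 3) to 9 (without CRE replicate 3) members past the adjusted p, with 3 without CRE replicate 2, VAF347 replicate 1 or VAF347 replicate 2, and 10 to 16 members not overlapping. The shares of all genes moved as well, from 1.96% without VAF347 replicate 3 to 8.26% without CRE replicate 3 past the adjusted p, with 2.16% to 3.98% in the other 4 fits, and from 35.2% to 38.9% not overlapping. The medians then ran from 0.036 to 0.12 for glutathione, 0.31 to 0.41 for thioredoxin, -0.12 to 0.11 for exporters and 0.0035 to 0.16 for superoxide dismutases and catalase.

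The deviations of same-numbered libraries correlated at 0.071, 0.104 and 0.046, and those of differently numbered ones at -0.052 to -0.015. Each library thus correlated best with its own number. These values are small, and they do not settle whether the replicate numbers pair the libraries. With the replicate block 6 members passed, *MAFF* (adjusted p = 0.0380) in addition to the 5 (4.72% of all genes), and with block and GC offset 4 did (3.40%). Of 592 single-gene values under alternatives, 73 in 17 members changed sign, none of them past the threshold in either fit. At this depth, *GPX2* was too low to test.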
